A study of Mus musculus with 4 samples.

Results

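The nuclei described here are GABAergic nuclei of the mouse basolateral amygdala (BLA) that hold transcripts of Adarb2 and lack those of Vip. They were chosen nucleus by nucleus from counts of unique molecular identifiers (UMIs, 1 for each captured RNA molecule). A member had at least 500 detected genes, under 5% mitochondrial UMIs, at least 1 UMI of Gad1, Gad2 and Slc32a1 together, at least 8 of Adarb2, at most 1 of Vip, at most 3 of Foxp2 and none of Slc17a7 or Slc17a6. Of 26850 nuclei kept from 27313 barcodes, 846 were members, with 150 in WT replicate 1, 120 in DISC1-N replicate 1, 293 in WT replicate 2 and 283 in DISC1-N replicate 2. Values for the 4 libraries are given in that order throughout.

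The study set WT mice against DISC1-N mice, both on C57BL/6J, and asked whether BLA cells differ between them. Every mouse, WT included, had been given tamoxifen by intraperitoneal injection 6 h before the tissue was taken. Both sides of the BLA from 5 mice were pooled for each group, and nuclei were sequenced with droplet 3′ chemistry in 2 libraries per genotype. The labels name no promoter, allele or age for the DISC1-N line and do not say whether the replicates come from separate mice, so p-values between libraries measure a spread that may be technical.

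Adarb2 encodes a member of the family of adenosine deaminases that act on RNA, one with no known editing activity of its own, and its gene lies at chr13:8202866-8768747 on the plus strand of mm10. In the forebrain it marks GABAergic interneurons born in the caudal ganglionic eminence, an embryonic zone that supplies neurogliaform cells, Cck basket cells and Vip cells, whereas Sst and Pvalb interneurons come from the medial ganglionic eminence. Neurogliaform cells release GABA diffusely into the surrounding tissue, and Cck basket cells contact the somata of their targets and carry cannabinoid receptors on their terminals.

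The libraries held 37840301 to 48439711 UMIs over 4654 to 8381 barcodes. The members' summed counts came to 787209, 825377, 1449659 and 1562473 UMIs, with a median of 4490.5, 5830.5, 4448 and 5124 UMIs per nucleus. Between 5 and 21 barcodes were shared by a pair of libraries, and none of these was a member in both. The replicate number coincided with the Cell Ranger version named in the file headers (7.0.0 for replicate 1 and 6.0.2 for replicate 2). The members' summed mitochondrial level differed with it, at 2851, 1267, 337 and 441 CPM (summed UMIs scaled to the total of the population in its library), so comparisons of genotype are given within each replicate number as well.

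The genes of the rule describe the members and are no finding. Adarb2 stood at 6360, 6973, 9215 and 9589 CPM in the summed members, and at 1051, 1082, 1191 and 1506 CPM in the other GABAergic nuclei (2120 nuclei with at least 3 UMIs of Gad1, Gad2 and Slc32a1, no Slc17a7 or Slc17a6, and outside the rule). The median member held 27 Adarb2 UMIs and the highest 504. At the edge of the rule lay 48 members with exactly 8 Adarb2 UMIs and 65 nuclei with 7 that were otherwise alike. Another 48 members held 1 Vip UMI, and 58 nuclei were left out with 2 or 3. There were 25 members with 3 Foxp2 UMIs and 31 otherwise alike nuclei with 4. The GABAergic condition was met with a single UMI by 185 members, with 2 by 152 and with 3 or more by 509.

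The label was checked against markers, and part of the members went against it. Clustering of the members on 1500 variable genes, with the genes of the rule left out, gave 11 clusters. Of these, 3 were led by glial genes and held 150 members (17.7%), or 27.3%, 20.0%, 13.3% and 16.3% of the members of the 4 libraries. Cluster 5 (75 nuclei) was led by Pdgfra, Neu4 and Cspg4, genes of oligodendrocyte precursors, with Pdgfra at 1185 CPM against 0 to 53.6 CPM in the other clusters. Its nuclei held a median of 10 Adarb2 UMIs, close to the threshold of the rule. Cluster 7 (45 nuclei) was led by genes that included the myelin genes Mobp and Mag. Cluster 9 (30 nuclei) was led by astrocyte genes that included the glutamate transporter gene Slc1a3, and it had the highest median doublet score of the 11 clusters, 0.182. The interneuron genes Reln and Npas1 stood at 218 and 40.1 CPM in cluster 7 and at 442 and 58.1 CPM in cluster 9. In cluster 5 they were at 60.6 and 7.6 CPM. The sums of clusters 7 and 9 thus held glial and interneuron genes together. Counts of calls are also given without the nuclei of these 3 clusters. Clusters 6 and 8, described below, held little of the caudal interneuron genes Prox1, Npas1, Nr2f2 and Htr3a, and stayed in those counts. Cluster 4 was also low in Prox1, Npas1 and Htr3a, and cluster 10 in Npas1, Nr2f2 and Htr3a. These clusters stayed in those counts as well.

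Cluster 1 was the largest, with 205 nuclei (24.2% of members), and is called Lamp5 neurogliaform-like from its markers. Its leading genes included Ndnf at 268 CPM (a secreted neurotrophic factor), Npy at 596 CPM (neuropeptide Y), Kit at 1017 CPM (the receptor for stem cell factor), Egfr at 639 CPM and Lamp5 at 184 CPM. Reln, which encodes a secreted matrix protein, stood at 929 CPM there. Npas1, a transcription factor gene of caudal interneurons, had no UMI in this cluster.

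Cluster 2 held 144 nuclei (17.0%) and is called Cck basket-like. It was led by Yjefn3, Syt6, Col25a1, Cnr1 at 1451 CPM (cannabinoid receptor 1) and Cck at 646 CPM (cholecystokinin), and it held Slc17a8 at 63.2 CPM (vesicular glutamate transporter 3), a gene with at most 6.6 CPM in any other cluster. The median Adarb2 count was 110 UMIs in cluster 2, or 19.0 per 1000 UMIs, against 5.59 per 1000 over all members. The lowest cluster medians in UMIs were 10 in cluster 5 and 11 in cluster 8, or 3.73 and 2.82 per 1000 UMIs. Per 1000 UMIs the lowest median was 2.75, in cluster 4.

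Cluster 3 (126 nuclei, 14.9%) was led by Thsd7b, Thsd7a, Kcnc2 at 3355 CPM (a fast potassium channel of the Kv3 family) and Ntng1. It shared Reln at 890 CPM with cluster 1, and Cnr1 at 516 CPM and Npas1 at 201 CPM with cluster 2, and is left unnamed. It also held Prox1 at 136 CPM and Nr2f2 at 181 CPM, transcription factor genes of caudal interneurons.

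The remaining clusters are given by their leading genes. Cluster 4 (85 nuclei) was led by Npsr1 at 175 CPM (the neuropeptide S receptor), Hs3st4 and Slit3, and cluster 11 (12 nuclei) by Col24a1, Mylk and Npsr1 at 711 CPM. Cluster 4 held Prox1 at 10.5 CPM, Npas1 at 16.6 CPM, Nr2f2 at 64.7 CPM and Htr3a at 9.0 CPM. Its Sst level, 179 CPM, was the highest of any cluster, and it held Meis2 at 395 CPM and Sox6 at 154 CPM. Cluster 6 (55 nuclei) was led by the proteoglycan gene Gpc5 at 9986 CPM. It held Sox6, a gene of medial interneurons, at 765 CPM, below the 1514 CPM of the precursor-led cluster 5. Other medial genes there were Satb1 at 77.5 CPM, Lhx6 at 40.0 CPM, Sst at 27.5 CPM and Pvalb at 5.0 CPM. Of the caudal genes it held Npas1 at 5.0 CPM and Nr2f2 at 10.0 CPM, with no Prox1 or Htr3a UMI. Cluster 8 (39 nuclei) was led by Col6a1, Otof, Meis2 at 2108 CPM and Penk at 617 CPM. Meis2 and Penk mark striatal and intercalated neurons, and Foxp2 reached 565 CPM there in spite of the limit set by the rule. This cluster held Prox1 at 6.6 CPM and Nr2f2 at 19.7 CPM, with no Npas1 or Htr3a UMI. Cluster 10 (30 nuclei) was led by Mctp2, Tacr1 at 196 CPM (the substance P receptor) and Hcrtr2 at 760 CPM (orexin receptor 2), with Lamp5 at 214 CPM and no Ndnf UMI. It held Prox1 at 47.5 CPM, Npas1 at 5.9 CPM, Nr2f2 at 11.9 CPM and Lhx6 at 35.6 CPM, with no Htr3a UMI.

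**Figure D1:**
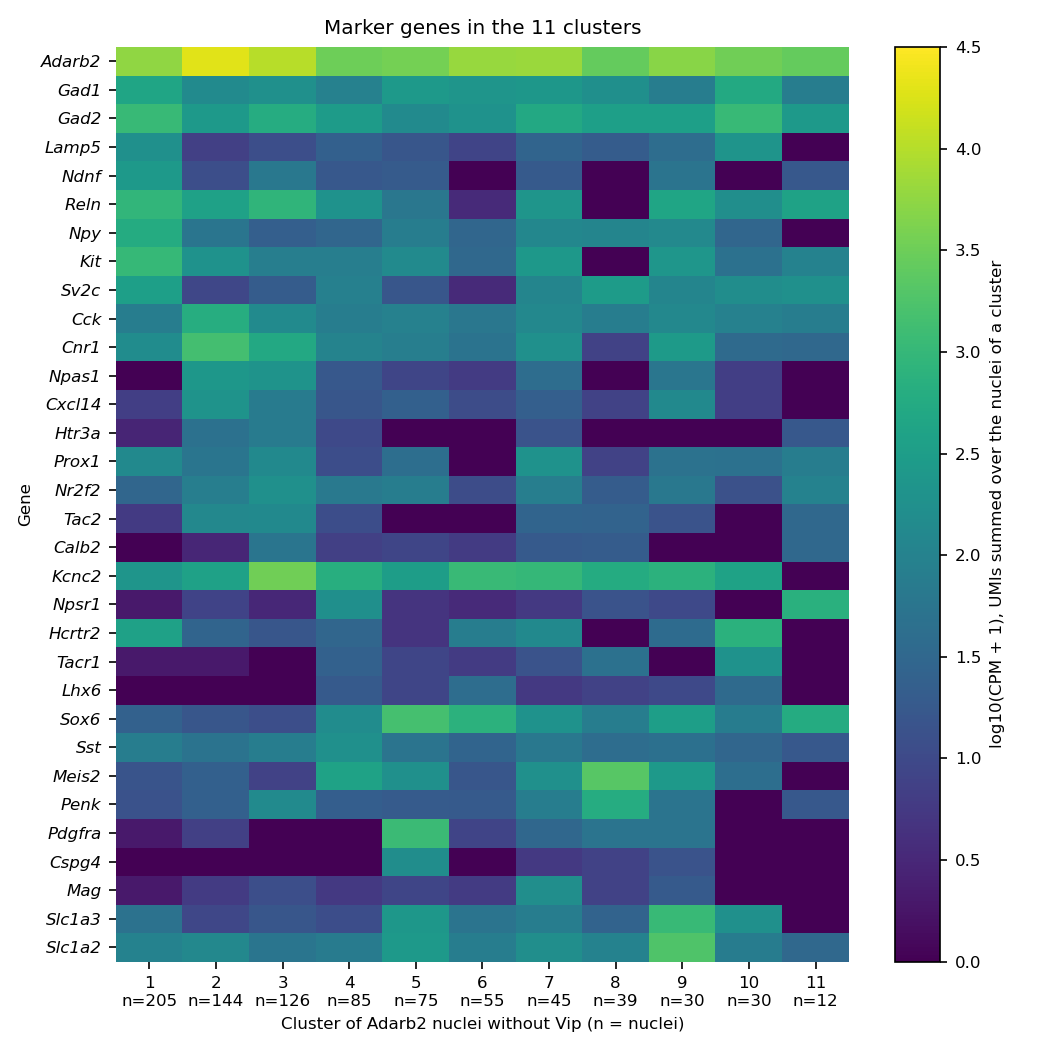
Level of 32 marker genes (rows) in the 11 clusters of Adarb2 nuclei without Vip (columns, n is the number of nuclei), as log10(CPM + 1) of the UMIs summed over a cluster. Ndnf, Npy and Kit are brightest in cluster 1, Cnr1, Cck and Npas1 in cluster 2, Pdgfra in cluster 5, Mag in cluster 7 and Slc1a3 in cluster 9.

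Free RNA sets a floor for single nuclei, which was read from nuclei with oligodendrocyte markers after thinning every nucleus to 2000 UMIs. A Reln UMI was found in 30.5% of thinned WT members and 33.6% of thinned DISC1-N members, against 1.4% and 0.92% of the oligodendrocyte nuclei. Before thinning these shares were 39.3% and 44.4%, against 1.48% and 2.47%, at median depths of 4468 and 5210 UMIs in members and 1654 and 1674 in oligodendrocyte nuclei. Thinning left out 7 and 13 members and 655 and 524 oligodendrocyte nuclei. Thinned shares also lay above the floor for Cnr1 (37.8% and 36.4%, against 10.3% and 7.65%), Kit (32.3% and 33.9%, against 3.63% and 5.2%) and Npas1 (12.6% and 12.6%, against 0.28% and 0.31%). For Cck they were 25.7% and 21.0%, against 22.6% and 24.2%, and for Sst 13.8% and 5.64%, against 15.1% and 10.4%. A single Cck or Sst UMI in a member is therefore at the level of background at this depth.

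Members made up 2.48%, 2.66%, 3.62% and 3.45% of the kept nuclei, with exact (Clopper-Pearson) 95% intervals of 2.10% to 2.90%, 2.21% to 3.18%, 3.22% to 4.05% and 3.07% to 3.87% that cover counting error only. The 2 replicate 1 libraries were low and the 2 replicate 2 libraries high, and the genotypes overlapped. The mean was 3.05% ± 0.805 (SD, n = 2) in WT and 3.06% ± 0.558 (SD, n = 2) in DISC1-N, a difference of 0.182 points in replicate 1 and -0.168 points in replicate 2. Among GABAergic nuclei the shares were 28.1%, 31.1%, 28.8% and 27.4%. The DISC1-N minus WT difference was 2.95 points in replicate 1 and -1.39 points in replicate 2. A two-sided exact permutation test gave p = 1 for both measures, and with 2 libraries per genotype it cannot go below 0.3333. Members needed 1 GABAergic marker UMI and the other GABAergic nuclei 3, which bears on this share. With 1 UMI for both, members made up 11.4%, 12.2%, 12.1% and 12.8%, and DISC1-N was higher by 0.78 points in replicate 1 and 0.632 points in replicate 2. The difference in replicate 2 also turned positive in 3 other settings. The differences in replicates 1 and 2 were 4.51 and 1.26 points with members of 3 or more GABAergic marker UMIs, 6.7 and 1.28 points with nuclei of 5000 or more UMIs, and 3.67 and 0.0411 points with 12 or more Adarb2 UMIs. In these 4 settings the exact permutation test gave p = 0.3333, the smallest it allows. Among kept nuclei the replicate 2 difference turned positive in the same 3 settings, to 0.218, 0.715 and 0.0357 points. Without the members of glial-led clusters the mean differences were 0.0402 points of kept and 1.21 points of GABAergic nuclei, with signs that again differed between replicates.

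Set against the other GABAergic nuclei, the members held more transcripts of caudal interneuron genes and of Reln, Kit and Cnr1. They held fewer of Sst and of genes of striatal and intercalated neurons. By edgeR's quasi-likelihood test with the library as a term, 683 of 11600 genes (5.89%) passed a Benjamini-Hochberg adjusted p of 0.05 and a change of at least 2-fold, with 310 higher (2.67%) and 373 lower (3.22%) in members. The populations were separated by Adarb2, Vip and Foxp2, so genes that travel with these 3 were bound to differ, and the calls describe the contrast and do not support the choice of members. They also differed in the GABAergic marker minimum, 1 UMI for members and 3 for the others. The 185 members with 1 such UMI and the 152 with 2 therefore had no counterpart among the others. With members of 3 or more, 678 genes passed, 269 higher and 409 lower. Foxp2 itself stood at 815, 779, 909 and 825 CPM in the other GABAergic nuclei, where the rule sets no limit on it.

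Reln stood at 245, 418, 426 and 593 CPM in members and at 54.5, 35.2, 50.7 and 45.5 CPM in the other GABAergic nuclei. Its lowest member library was above the highest library of the others, and the log2 fold change was 3.16 ± 0.145 (SE, adjusted p = 4.48e-15 by edgeR's quasi-likelihood test). Kit stood at 240, 264, 355 and 373 CPM against 42.5, 32.0, 44.1 and 37.3 CPM. It was about as even across libraries in both populations, with a log2 fold change of 3.00 ± 0.106 (SE). Cnr1, through which endocannabinoids suppress release, stood at 494, 532, 414 and 392 CPM against 79.3, 56.6, 61.6 and 70.8 CPM, a log2 fold change of 2.73 ± 0.0937 (SE).

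Other genes among the 12 highest fold changes follow. Rgs12, which encodes a regulator of G protein signalling, stood at 112, 131, 136 and 112 CPM against 15.5, 13.9, 10.2 and 13.9 CPM (log2 fold change 3.22). Frem1, an extracellular matrix gene, reached 156, 177, 165 and 197 CPM against 27.8, 9.61, 14.5 and 23.2 CPM (3.19). These genes too were separated in all 4 libraries. Hcrtr2 stood at 85.1, 113, 158 and 156 CPM against 21.7, 17.6, 23.8 and 26.6 CPM (2.53), and Igf1, insulin-like growth factor 1, at 136, 108, 123 and 113 CPM against 25.1, 38.4, 24.6 and 28.2 CPM (2.08). The same held for Sema3c (3.08), Crispld1 (2.82), Parm1 (2.38) and Gpc5 (2.45), the last of which came mainly from cluster 6.

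Sst, the somatostatin gene, stood at 130, 103, 58.6 and 48.0 CPM in members against 711, 575, 1256 and 428 CPM, a log2 fold change of -3.18. Meis2 stood at 119, 148, 195 and 182 CPM against 1121, 1009, 1203 and 1072 CPM (-2.76). Kcnh5, a voltage-gated potassium channel gene, stood at 67.3, 38.8, 81.4 and 69.8 CPM against 217, 266, 281 and 245 CPM (-1.94). Every member library lay below every library of the others for these 3 genes, and for Moxd1 (-3.12), Chst9 (-3.16), Otof (-2.67), Rarb (-2.67), Sema3a (-2.56), Ano3 (-2.16) and Adamts3 (-1.95).

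**Figure D2:**
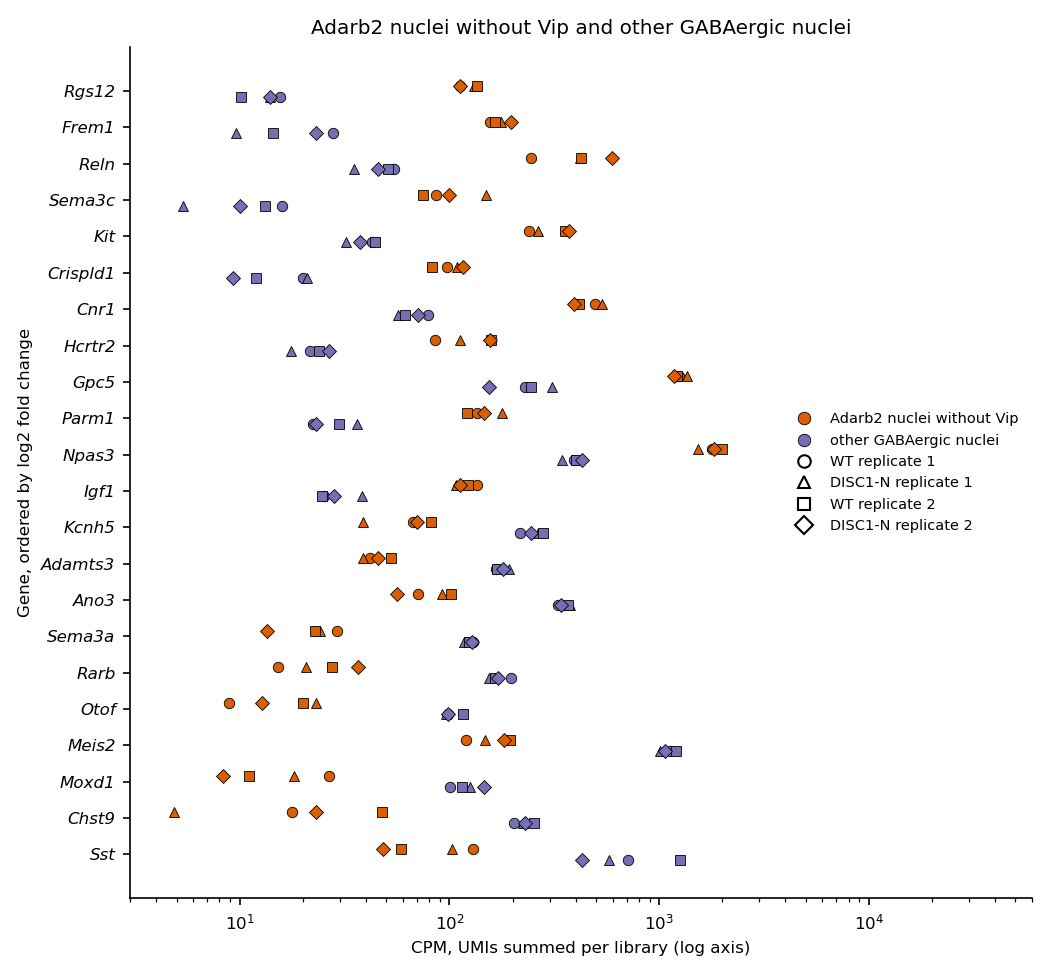
CPM of 22 genes (log axis) in each library's summed Adarb2 nuclei without Vip (orange) and other GABAergic nuclei (purple), with 1 symbol per library, for the 12 highest and 10 lowest fold changes. The colours do not overlap for any of these genes, as with Reln at 245 to 593 CPM in orange and 35.2 to 54.5 CPM in purple.

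Of 12 caudal ganglionic eminence genes, 10 could be tested and 8 were higher in members, with a median log2 fold change of 1.5 beside 0.03 over all genes tested. Npas1 had a log2 fold change of 4.09, from 81.3, 96.9, 74.5 and 73.0 CPM in members against 5.41, 6.40, 3.04 and 4.55 CPM. Npas3 (2.18), Htr3a (2.34, the serotonin-gated channel), Prox1 (2.22), Zbtb16 (1.66), Nr2f2 (1.34), Nfib (1.21) and Nfix (1.10) were the other 7. Of 9 Cck basket genes 8 could be tested and 6 were higher, with a median of 2.17. Among them Slc17a8 (3.87), Cxcl14 (2.0, a chemokine) and Cck (1.40) came beside Cnr1.

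Of 12 Lamp5 neurogliaform genes 10 could be tested, 5 were higher and 1 lower, with a median of 1.19. Ndnf (3.60), Pde11a (2.0) and Hapln1 (1.68) were higher with Reln and Kit, and Eya4 was lower (-1.15). Lamp5 itself had a log2 fold change of 0.70 and did not reach 2-fold, at 33.0, 58.2, 61.4 and 72.3 CPM in members against 42.5, 36.3, 41.1 and 27.5 CPM. Its level was below that of the others in WT replicate 1 and above it in the other 3 libraries. Npy did not pass either, at 194, 239, 141 and 162 CPM against 136, 173, 291 and 87.4 CPM (0.14, adjusted p = 0.646 by edgeR's quasi-likelihood test). Npy is also a gene of Sst interneurons, which are among the others.

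Of 14 medial ganglionic eminence genes, all tested, 3 were lower (Sst, Tac1 at -1.90 and Pvalb at -1.38) and none was higher. Of 12 intercalated or striatal genes 10 could be tested and 8 were lower, with a median of -1.83. They included Ppp1r1b (-2.58, a phosphatase inhibitor of dopamine signalling), Rgs9 (-2.0), Drd2 (-1.98), Penk (-1.93) and Drd1 (-1.33), and the limit on Foxp2 in the rule bears on this list. All 4 oligodendrocyte precursor genes were higher in members, with Pdgfra at 130, 65.4, 63.5 and 65.3 CPM against 10.1, 23.0, 11.4 and 8.65 CPM (2.65). These reads lay mainly in cluster 5, and the lower GABAergic marker minimum of the members bears on this list. The summed precursor list came to 245, 145, 185 and 216 CPM in members and 30.9, 63.5, 52.5 and 45.7 CPM in the others. Neither population differed at 2-fold in any tested astrocyte (3), oligodendrocyte (6) or microglia (4) gene. Without the members of glial-led clusters, 725 genes passed, 259 higher and 466 lower.

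Receptor genes differed in both directions, beside 2.67% of all tested genes higher and 3.22% lower. Among 11 AMPA and kainate receptor genes, Grik1 was higher at 861, 1026, 993 and 1159 CPM against 279, 363, 370 and 533 CPM (1.40), and Gria1 (-1.25) and Grik3 (-1.67) were lower. Of 6 tested metabotropic glutamate receptor genes 3 were lower, among them Grm7 (-1.21), a presynaptic receptor, and Grm8 (-1.5), and all 6 estimates were below 0, with a median of -0.88 beside 0.03 over all genes. Of 6 tested NMDA receptor genes 1 passed, Grin2d (1.10). Chrna7, the alpha7 nicotinic receptor gene, stood at 130, 118, 153 and 162 CPM against 53.4, 51.2, 51.2 and 53.9 CPM (1.45). Adra1b (1.51, an alpha1 adrenoceptor) and the neuropeptide Y receptor genes Npy1r (2.11) and Npy5r (1.18) were higher as well.

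Of 13 tested neuropeptide precursor genes 7 were lower and 2 higher, with a median of -1.01. Over all genes 2.67% were higher and 3.22% lower. Pdyn (-3.07, prodynorphin), Nts (-2.42, neurotensin) and Cort (-1.7, cortistatin) were lower beside Sst, Penk and Tac1. The 2 higher genes were Cck and Pnoc (1.48, prepronociceptin), with Pnoc at 44.5, 33.9, 29.7 and 36.5 CPM against 14.3, 9.07, 16.2 and 10.5 CPM. Of 27 tested potassium and HCN channel genes 2 passed, both lower (Kcnd2 at -1.48 and Kcnh5), a count too small to set this list apart from all genes. The related deaminase genes differed little. Adarb1 stood at 94.0, 89.7, 82.8 and 108 CPM in members (log2 fold change 0.20 ± 0.10 SE, adjusted p = 0.172 by edgeR's quasi-likelihood test) and Adar at 85.1, 96.9, 99.3 and 92.8 CPM (-0.08 ± 0.089 SE, adjusted p = 0.624).

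The Vip interneurons (212 nuclei that met the same rule but held at least 4 Vip UMIs) share the rest of the rule with the members. Against them the members held more of the neurogliaform genes and less of the peptides of Vip cells, while Prox1 and Htr3a, genes of caudal interneurons, were higher in the Vip cells. In all, 415 of 7758 genes passed (5.35%), 256 higher (3.3%) and 159 lower (2.05%) in members. The 2 populations were separated by Vip, so genes that travel with it were bound to differ. These calls describe the contrast and do not support the choice of members. Vip interneurons were shallower, with medians of 3585, 3529, 3182 and 3513 UMIs and 195298 to 249299 UMIs summed per library. With only nuclei of at least 5000 UMIs 157 genes passed. Without the members of glial-led clusters 417 passed, 250 higher and 167 lower.

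Ptprm, a receptor tyrosine phosphatase gene of cell adhesion, stood at 608, 755, 840 and 1013 CPM in members and 66.6, 42.0, 122 and 60.2 CPM in Vip interneurons (log2 fold change 3.42). Nxph1, a neurexin ligand, stood at 890, 983, 1017 and 1172 CPM against 215, 47.3, 201 and 44.1 CPM (3.00). In the Vip nuclei both WT libraries were above both DISC1-N libraries for this gene. Sv2c, a synaptic vesicle glycoprotein gene, stood at 81.3, 101, 145 and 138 CPM against 15.4, 5.25, 24.5 and 12 CPM (2.97), and Sgcz at 1695, 1569, 1998 and 1983 CPM against 251, 289, 298 and 108 CPM (2.92). Of 8 tested neurogliaform genes 7 were higher in members, with a median of 2.29. They were Ndnf (4.81), Sv2c, Hapln1 (2.60), Lamp5 (2.34), Npy (2.25), Reln (2.23) and Pde11a (1.82).

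All 4 tested Vip type genes were lower in members, and the limits on Vip that separate the populations bear on this list. Crh, corticotropin-releasing hormone, stood at 12.7, 3.63, 1.38 and 1.28 CPM against 118, 131, 137 and 72.2 CPM (-4.85), and the highest member library, WT replicate 1, was still below the lowest Vip library. Tac2, neurokinin B, stood at 53.4, 89.7, 40.7 and 24.3 CPM against 476, 389, 225 and 189 CPM (-2.68), with Calb2 at -2.12 and Penk at -1.88. Wnt5b (-3.34), Rnf144b (-3.12), Sema5b (-2.76) and Ccnd2 (-2.54) were lower too. The bombesin receptor gene Grpr was at 1.27, 1.21, 5.52 and 1.92 CPM in members against 92.2, 94.6, 68.5 and 56.2 CPM (-4.71).

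Of 9 tested caudal genes 2 passed, both lower in members. Prox1 stood at 73.7, 55.7, 73.8 and 85.1 CPM in members, 205, 268, 269 and 249 CPM in Vip interneurons and 15.1, 19.7, 14.0 and 15.9 CPM in the other GABAergic nuclei. The 3 populations were thus separated in every library, with the members in the middle. Htr3a lay in the middle too (-1.37 against Vip interneurons). Npas1 (-0.12), Nr2f2 (-0.11) and Cnr1 (-0.27) did not pass against Vip interneurons, with adjusted p of 0.82, 0.863 and 0.179 by edgeR's quasi-likelihood test.

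Against Vip interneurons, 2 of 13 tested GABA receptor genes, 1 of 11 AMPA and kainate receptor genes and 2 of 5 NMDA receptor genes were higher in members and none of these was lower. Lower were 2 of 5 metabotropic glutamate receptor genes, 2 of 3 noradrenaline and dopamine receptor genes, 3 of 4 neuropeptide receptor genes and 1 of 4 acetylcholine receptor genes, with none higher. Of 6 serotonin receptor genes 1 was higher and 2 were lower. Over all genes 3.3% were higher and 2.05% lower. The higher genes included Grin2a (1.80, an NMDA receptor subunit), Htr2a (2.90, serotonin receptor 2A), Gabrg1 (1.80) and Gabra5 (1.34). Grin2a stood at 762, 1113, 1129 and 1204 CPM against 302, 242, 377 and 245 CPM. The lower genes included Adra1b (-2.52), Htr4 (-1.93), Grm7 (-1.83), Grm8 (-1.60), Adrb1 (-1.7) and Npy1r (-1.31). Adra1b stood at 40.7, 38.8, 55.2 and 53.8 CPM in members and 241, 236, 298 and 277 CPM in Vip interneurons, so that it was higher in members than in the other GABAergic nuclei and lower than in Vip interneurons.

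**Figure D3:**
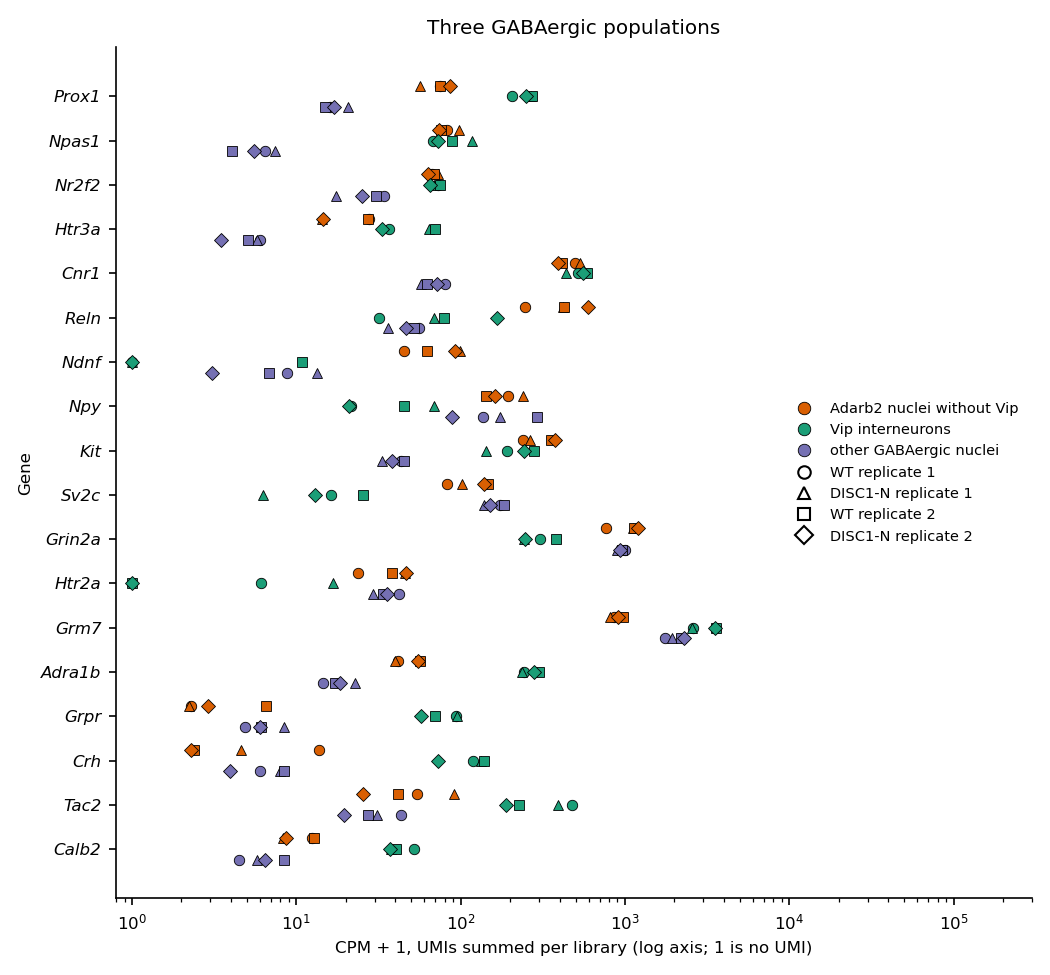
CPM + 1 (log axis, 1 is no UMI) of 18 genes in each library's summed Adarb2 nuclei without Vip (orange), Vip interneurons (green) and other GABAergic nuclei (purple), with 1 symbol per library. Prox1 and Adra1b are ordered green, orange, purple, Reln and Ndnf are highest in orange, and Crh and Grpr stand apart in green.

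Within the members, the nuclei with at least 2 Lamp5 UMIs (3, 12, 23 and 28 nuclei) were compared with those without any (127, 94, 237 and 211 nuclei). The Lamp5 nuclei held more Npy, Ndnf, Kit, Grin2a and Htr2a and less Cnr1, Htr2c, Grm7 and Dcc. Of 6251 genes, Lamp5 left out, 472 passed (7.55%), 158 higher (2.53%) and 314 lower (5.02%) in Lamp5 nuclei. The smallest sum, WT replicate 1, held 17865 UMIs. Without the members of glial-led clusters 403 passed, 167 higher and 236 lower. Lamp5 itself stood at 184 CPM in cluster 1 and 214 CPM in cluster 10 and at no more than 40.2 CPM in the other clusters, so genes of these 2 clusters were bound to differ, and nuclei without a Lamp5 UMI include cells whose Lamp5 transcripts were missed.

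Ndnf stood at 224, 240, 182 and 331 CPM in Lamp5 nuclei and 32.0, 70.5, 43.2 and 48.6 CPM in the rest (log2 fold change 2.27). Npy stood at 1511, 549, 399 and 478 CPM against 101, 113, 77.9 and 112 CPM (2.44). The Lamp5 nuclei were above the rest in every library for both genes, with the highest Npy value in the 3 nuclei of WT replicate 1. Of 7 tested neurogliaform genes 6 were higher, Pde11a (2.42) and Hapln1 (2.41) among them. Reln stood at 56.0, 343, 842 and 1089 CPM in Lamp5 nuclei against 238, 408, 393 and 456 CPM. It was below the other members in both replicate 1 libraries and above them in both replicate 2 libraries, and WT replicate 1 rests on a single Reln UMI.

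Receptor and channel genes differed in both directions. Of 13 tested GABA receptor genes 4 were higher and 3 lower in Lamp5 nuclei, of 5 NMDA receptor genes 1 was higher and none lower, and of 16 sodium and calcium channel genes 1 was higher and 2 lower. Of 11 AMPA and kainate receptor genes 2 were lower and none higher, of 5 metabotropic glutamate receptor genes 3 were lower and none higher, and of 25 potassium and HCN channel genes 1 was higher and 4 lower. Over all genes 2.53% were higher and 5.02% lower. Grin2a stood at 2631, 2950, 3106 and 2617 CPM against 555, 778, 787 and 823 CPM (1.84). Cacna2d1, an auxiliary calcium channel subunit gene, stood at 2407, 2892, 2126 and 2184 CPM against 413, 552, 676 and 674 CPM (1.93). Gabra5, a GABA-A receptor subunit of extrasynaptic receptors, stood at 112, 103, 121 and 127 CPM against 35.0, 18.0, 37.3 and 31.8 CPM (1.90). For all 3 the Lamp5 nuclei were higher in each library. Gabbr2 (1.54), Adra1a (1.61) and Pnoc (1.49) were higher too. The 2 lower channel genes of the sodium and calcium list, Cacna2d2 (-3.63) and Cacna2d3 (-2.56), encode the same kind of auxiliary subunit as Cacna2d1.

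Htr2c, serotonin receptor 2C, stood at 56.0, 80.0, 26.0 and 44.6 CPM in Lamp5 nuclei against 523, 385, 599 and 569 CPM (-3.49), the opposite direction to Htr2a (2.50). Cnr1 stood at 112, 114, 182 and 115 CPM against 555, 662, 476 and 480 CPM (-2.01), and Dcc, the netrin receptor gene, at 168, 137, 95.4 and 229 CPM against 913, 816, 1142 and 1031 CPM (-2.70). These 3 were lower in every library, as was Grm7 (-2.12). Npas1 had no UMI in any of the 4 Lamp5 sums, against 62, 64, 102 and 102 UMIs in the nuclei without Lamp5. Cadps2, a gene of vesicle priming, had 0, 0, 0 and 3 UMIs, and Cxcl14 had 0, 0, 1 and 0 UMIs against 93, 57, 80 and 48. No fold is given for these 3. Of 6 tested Cck basket genes 5 were lower, and none was higher.

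**Figure D4:**
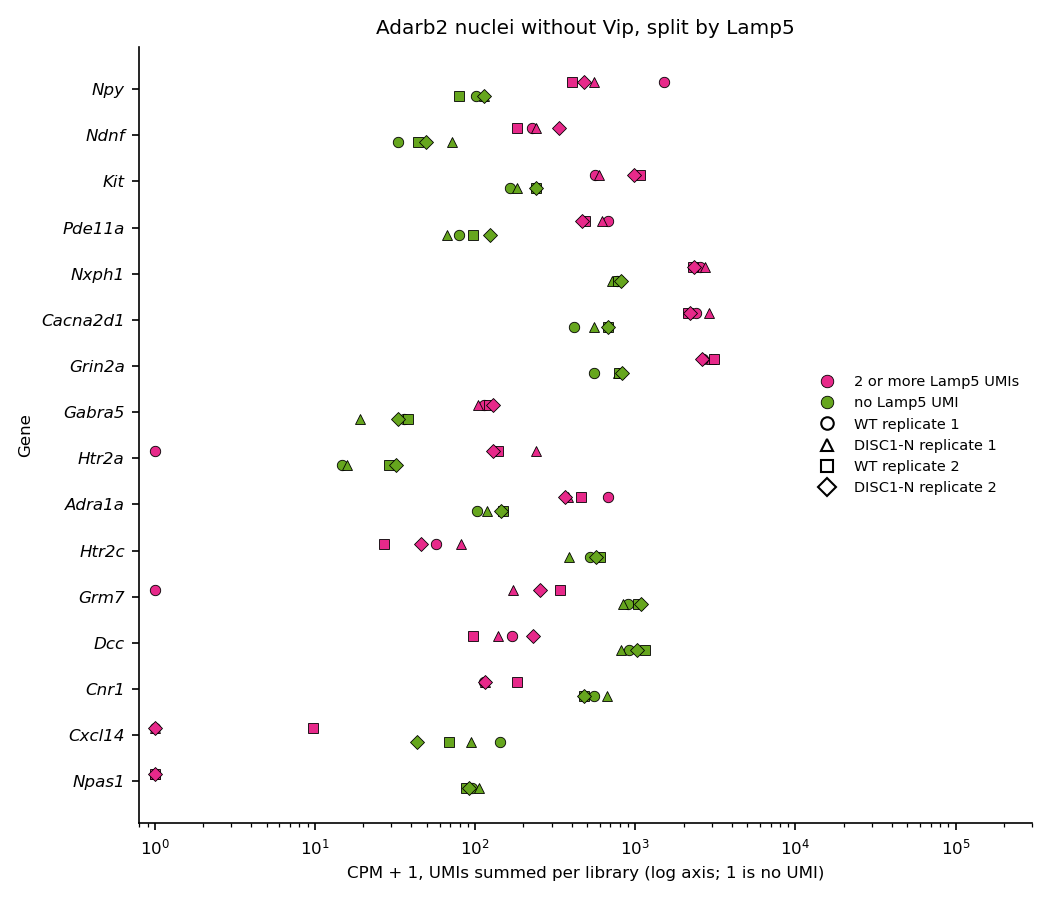
CPM + 1 (log axis, 1 is no UMI) of 16 genes in members with at least 2 Lamp5 UMIs (pink) and without any (green), with 1 symbol per library. Pink lies above green in all libraries for Npy, Ndnf, Kit and Grin2a and below it for Htr2c, Dcc and Cnr1, and the pink Npas1 symbols all sit at no UMI.

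For genotype, no gene passed in the members when the 4 libraries were compared as 2 DISC1-N against 2 WT. Of 10625 genes tested by edgeR's quasi-likelihood test, 0 (0.0%) reached an adjusted p of 0.05, and 186 had an unadjusted p under 0.05. DESeq2 and limma-voom also called 0, with 26 and 182 at that unadjusted level. In 2722 genes (25.6%) the 2 genotypes did not overlap. With 2 libraries per genotype, a count of 0 does not show that the genotypes are alike.

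The file headers of replicate 1 and replicate 2 name different Cell Ranger versions. With the replicate number as a term in edgeR's quasi-likelihood fit 55 genes (0.518%) passed an adjusted p of 0.05, 22 higher (0.207%) and 33 lower (0.311%) in DISC1-N. Of the 55, 50 had the same sign in both replicate numbers. DESeq2 with the same term called 1 gene and limma-voom 43. Without the members in glial-led clusters edgeR called 25 genes, of which 23 were among the 55, and with at least 3 GABAergic marker UMIs per member it called 31.

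Reln stood at 245 CPM in WT and 418 CPM in DISC1-N in replicate 1, and at 426 and 593 CPM in replicate 2. Since WT replicate 2 was above DISC1-N replicate 1, the genotypes overlapped across replicates, with means of 335 ± 128 CPM in WT and 506 ± 124 CPM in DISC1-N (SD, n = 2). With the replicate term the log2 fold change was 0.63 ± 0.115 (SE, adjusted p = 7.33e-05 by edgeR's quasi-likelihood test). In the other GABAergic nuclei Reln went from 54.5 to 35.2 CPM in replicate 1 and from 50.7 to 45.5 CPM in replicate 2.

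By cluster, and as a description, Reln was at 438, 870, 770 and 1216 CPM in cluster 1 and at 400, 1441, 825 and 1080 CPM in cluster 3. Both clusters were higher in DISC1-N in both replicates. In cluster 2, the Cck basket-like nuclei, Reln was at 268, 246, 508 and 411 CPM and was lower in DISC1-N in both replicates. Cluster 1 made up 18.0%, 21.7%, 23.2% and 29.7% of the members, and the part of this composition in the summed Reln level was not tested.

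Ndnf, Egfr and Il1rap, leading genes of cluster 1, passed in the same direction. Ndnf stood at 44.5, 98.1, 61.4 and 90.9 CPM, with both DISC1-N libraries above both WT libraries (log2 fold change 0.80 ± 0.18 SE, adjusted p = 0.00427 by edgeR's quasi-likelihood test). It did not pass without the members in glial-led clusters. Egfr, the receptor for epidermal growth factor, stood at 149, 239, 177 and 263 CPM, again without overlap (0.65 ± 0.126 SE, adjusted p = 0.000309), and at 61.1, 69.4, 77.4 and 79.0 CPM in the other GABAergic nuclei. Within cluster 1 Ndnf was at 242, 362, 214 and 280 CPM and Egfr at 514, 654, 591 and 706 CPM, higher in DISC1-N in both replicates. Kit was lower there in DISC1-N in both replicates, at 945, 825, 1114 and 1039 CPM. Npy was at 869, 902, 478 and 485 CPM in that cluster and Lamp5 at 136, 203, 188 and 189 CPM. Of the 10 tested neurogliaform genes, 2 passed (Ndnf and Reln), and all 10 estimates were above 0, with a median of 0.38 beside 0.002 over all genes. The part of the cluster 1 share of members in these estimates was not tested.

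Yjefn3, a gene at chr8:69887788-69902712 on the minus strand that overlaps 2 other gene models, stood at 53.4, 166, 64.2 and 81.9 CPM (0.93 ± 0.168 SE, adjusted p = 4.65e-05 by edgeR's quasi-likelihood test). DISC1-N replicate 1 stood far above the other 3 libraries. Of its 42, 137, 93 and 128 UMIs, 35, 132, 82 and 120 lay in cluster 2, at 213, 649, 306 and 347 CPM. Snhg20, a long noncoding host gene of small nucleolar RNAs, stood at 235, 449, 186 and 261 CPM (0.73 ± 0.121 SE), and at 210, 327, 163 and 183 CPM in the other GABAergic nuclei, higher in DISC1-N in both replicates there too. Clmp, a cell adhesion gene, stood at 54.6, 87.2, 57.9 and 92.2 CPM (0.70) and did not pass without the glial-led members.

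Among the lower genes, Npsr1 stood at 45.7, 18.2, 55.2 and 28.8 CPM, with both DISC1-N libraries below both WT libraries (-1.03 ± 0.253 SE, adjusted p = 0.0157 by edgeR's quasi-likelihood test). In the other GABAergic nuclei it was at 23.6, 29.9, 19.0 and 34.6 CPM, higher in DISC1-N in both replicates. Of the members' 36, 15, 80 and 45 Npsr1 UMIs, 21, 11, 63 and 21 lay in cluster 4, which held 11, 13, 36 and 25 nuclei. There Npsr1 was at 195, 76.2, 269 and 118 CPM, lower in DISC1-N in both replicates. Cluster 11, with 2, 0, 6 and 4 nuclei, held 6, 0, 15 and 23 of the UMIs. In replicate 2 it went the other way, from 540 CPM in WT to 920 CPM in DISC1-N. AC149090.1 fell from 587 to 428 CPM in replicate 1 and from 739 to 300 CPM in replicate 2 (-0.87 ± 0.113 SE, adjusted p = 3.8e-11). The other GABAergic nuclei went from 558 to 419 and from 669 to 249 CPM. The annotation used gives no position for this gene, which may share reads with related copies, so its values are uncertain.

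Tcf7l2 (-1.27), Nckap5 (-0.78) and Lypd1 (-0.73) passed with all members and not without those in glial-led clusters. Tcf7l2, a transcription factor of the Wnt pathway that is also active in the oligodendrocyte lineage, stood at 22.9, 13.3, 39.3 and 13.4 CPM. The summed astrocyte list stood at 456, 276, 312 and 235 CPM in members, lower in DISC1-N in both replicates. Slc1a2 and Apoe, which astrocytes express, were among the genes that passed with all members only. From WT to DISC1-N the share of members in glial-led clusters went from 27.3% to 20.0% in replicate 1 and from 13.3% to 16.3% in replicate 2. The part of glial RNA in these calls was not tested.

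Of 21 tested heat shock and endoplasmic reticulum chaperone genes, 3 were lower in DISC1-N and none higher, with 19 estimates below 0 and a median of -0.34. Hsp90ab1 stood at 287, 158, 140 and 88.3 CPM (-0.73 ± 0.136 SE, adjusted p = 0.000116 by edgeR's quasi-likelihood test), and Hspa8 and Hspa5 were the other 2. Hsp90ab1 differed as much between replicate numbers as between genotypes, since DISC1-N replicate 1 stood above WT replicate 2. It was at 280, 165, 136 and 79.2 CPM in cluster 1 and 335, 157, 135 and 83.8 CPM in cluster 2. The summed chaperone list stood at 2392, 1768, 1551 and 1155 CPM in members. In the other GABAergic nuclei it stood at 1975, 1834, 1529 and 1151 CPM, and in Vip interneurons at 2693, 2527, 1727 and 1284 CPM. The list was thus lower in DISC1-N in both replicates outside the members too. Of 10 tested mitochondrial genes 4 passed as lower, but mt-Co2 at 429, 194, 36.6 and 41.6 CPM went down in replicate 1 and up in replicate 2. No tested gene of the GABA receptor (14), AMPA and kainate receptor (11), NMDA receptor (5), serotonin receptor (6), cannabinoid and opioid (7) or potassium and HCN channel (27) lists passed.

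Other lists held at most 1 called gene in each direction. Of 23 tested DISC1 protein partner genes 1 was lower, Ywhae, which encodes a 14-3-3 protein. It stood at 170, 105, 170 and 116 CPM (-0.57 ± 0.141 SE, adjusted p = 0.0157 by edgeR's quasi-likelihood test), with both DISC1-N libraries below both WT libraries, and it passed without the members in glial-led clusters too. Of 8 tested neuropeptide precursor genes 1 was lower, Tac1, the gene of substance P, at 29.2, 4.85, 9.66 and 3.2 CPM or 23, 4, 14 and 5 UMIs (-2.05). Of 18 sodium and calcium channel genes 1 was higher (Cacna2d1 at 0.40), as was 1 of 31 synaptic adhesion and guidance genes (Unc5c, a netrin receptor gene, at 0.43) and 1 of 3 central amygdala genes (Sema3c at 0.62). Of 8 Cck basket genes 1 was lower (Cxcl14 at -0.73), as was 1 of 3 astrocyte genes (Slc1a2 at -0.54). None of these 6 genes after Ywhae passed without the members in glial-led clusters.

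**Figure D5:**
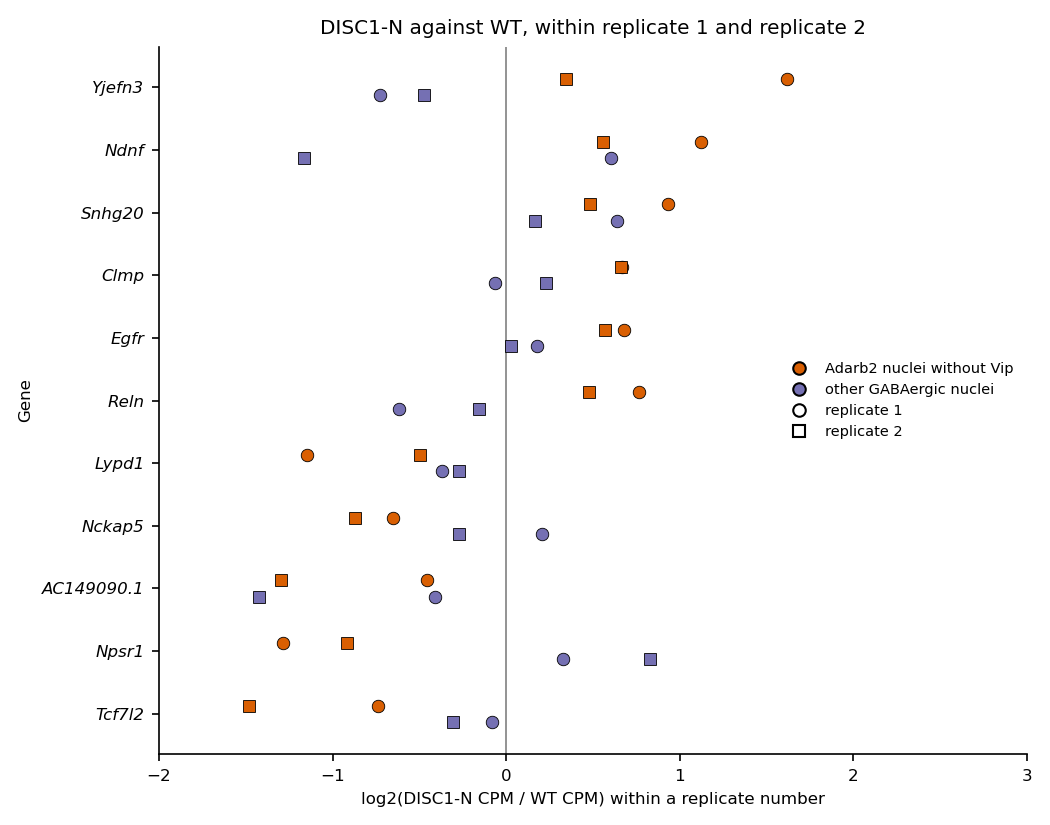
log2 ratio of DISC1-N to WT CPM within replicate 1 (circles) and replicate 2 (squares), in Adarb2 nuclei without Vip (orange) and other GABAergic nuclei (purple), for 11 genes called in the fit with the replicate term. In orange both ratios lie on the same side of 0 for each gene, and the purple ratios of Yjefn3, Reln and Npsr1 lie on the opposite side.

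Whether the genotype difference itself differed between members and other GABAergic nuclei was tested as an interaction. By edgeR's quasi-likelihood test 1 of 11600 genes (0.00862%) passed an adjusted p of 0.05, while 505 had an unadjusted p under 0.05. DESeq2 called 0 and limma-voom 1. That gene was Gm20754, a long noncoding RNA gene at chr3:73066316-73594830 on the plus strand that overlaps 5 other gene models. It was chosen after its values were seen. It stood at 196, 90.9, 219 and 130 CPM in members and at 216, 216, 268 and 311 CPM in the other GABAergic nuclei, so that both DISC1-N member libraries were low (interaction -0.99 ± 0.164 SE, adjusted p = 0.0367).

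The other low p-values of that test did not pass. Npsr1 had an interaction of -1.67 (adjusted p = 0.12 by edgeR's quasi-likelihood test), Yjefn3 of 1.52 (adjusted p = 0.416), Reln of 1.00 (adjusted p = 0.528) and Zfp804b of 0.84 (adjusted p = 0.781). The genotype differences of Npsr1, Yjefn3 and Reln are therefore not shown to differ between the members and the other GABAergic nuclei. With 2 libraries per genotype, they are not shown to be alike either.

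Disc1, at chr8:125054195-125261858, stood at 17.8, 14.5, 12.4 and 8.96 CPM in members and at 9.28, 13.9, 8.62 and 9.33 CPM in the other GABAergic nuclei. It was lower in DISC1-N in both replicates in members, by less than its error (log2 fold change -0.35 ± 0.47 SE, adjusted p = 1 by edgeR's quasi-likelihood test without the replicate term). A Disc1 UMI was found in 2.75% of thinned WT members and 2.31% of thinned DISC1-N members, against 2.23% and 2.75% of oligodendrocyte nuclei. Before thinning, at unlike depths, the shares were 7.22% and 5.71%, against 3.06% and 4.58%. The thinned shares are at the level of background only if oligodendrocytes make no Disc1 themselves, which was not tested. Counts of 3′ tags do not show which Disc1 product was made, so these values do not check the genotype labels.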

How the data were processed

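Nuclear RNA of 4 BLA libraries was read as the deposited UMI counts per gene and barcode, which the authors made with Cell Ranger on mm10, per the submitters' processing notes. Those notes name version 7.0.0 for all libraries, whereas the file headers name 7.0.0 for replicate 1 and 6.0.2 for replicate 2. The members and gene lists were chosen with earlier results of these data known.

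Counts were summed per library and population and tested with edgeR 4.0.16 in R 4.3.3 (quasi-likelihood fit, TMM scaling, filterByExpr with a minimum count of 10, Benjamini-Hochberg adjustment over all tested genes). The library was a term for contrasts of populations, and genotype was fitted without and with the replicate number. DESeq2 1.42.0 and limma 3.58.1 (voom) were alternatives. Fits were tested on simulated counts with known changes. Of 2-fold changes the genotype fit recovered 0% without the replicate term and 37.2% with it, and the interaction fit 3.1%. Recovery of 2-fold changes was 84% against other GABAergic nuclei, 63.3% against Vip interneurons and 40.2% by Lamp5. Deviations from the genotype means correlated at 0.482 between same-numbered libraries in members (7455 genes of at least 20 CPM) and 0.616 in other GABAergic nuclei, and the headers tie the number to a Cell Ranger version. Members were clustered with scanpy 1.11.5 (1500 variable genes, 20 components, 15 neighbours, resolution 0.5). Putative doublets, scored by simulation at 0.8% per 1000 nuclei, numbered 7, 5, 16 and 21 among members and were kept. Positions come from GENCODE vM21 (32158 of 32285 genes matched). Genes named are the 12 highest and 10 lowest fold changes against other GABAergic nuclei, 6 and 6 against Vip interneurons, 8 and 8 for Lamp5 (minimum mean of 100 CPM, 1 sign in all libraries), 6 and 6 for genotype with the replicate term and the lowest p otherwise (20 CPM), and list genes. Some genes that this rule takes are not reported here. Precision rests on the summed UMIs per library and on the spread between libraries. The intervals of the shares cover counting error only, whereas the SEs come from the edgeR fits.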

Additional observations from a re-analysis of the deposited data

Results flagged for a closer look

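The genotype difference of the long noncoding RNA gene Gm20754 differed between the members and the other GABAergic nuclei by edgeR's quasi-likelihood interaction test, with an interaction of -0.99 on the log2 scale (adjusted p = 0.0367). The gene overlaps 5 other models, and it did not pass in 8 of the alternatives run, among them the one without members in glial-led clusters. Whether overlapping transcripts contribute was not tested.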

How the results depend on the processing

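In the contrasts with other GABAergic nuclei, with Vip interneurons and by Lamp5, 25, 14 and 16 genes were run under the alternatives. They were those of highest and lowest fold change, with Adar and Adarb1 in the first 2 contrasts and Disc1 in the first. Their side of the threshold was the same in every alternative. Direction was the same for those that passed. It was not compared for those that did not, Adar and Adarb1 among them. Other genes named from lists were not run. The number of genes called against other GABAergic nuclei moved to 349 with a mean of at least 20 CPM, and was 927 (602 lower, against 373) with other nuclei of 1 or more GABA marker UMIs and 956 with no filter. Against Vip interneurons it moved to 275 with members of 3 or more GABA marker UMIs and 157 with nuclei of 5000 or more UMIs, and by Lamp5 to 289 with 3 or more GABA marker UMIs. Leaving out 1 library gave 611 to 740, 384 to 434 and 373 to 462 calls. For genotype, 2 genes passed with no expression filter and 3 to 9 without 1 library (for WT, 3 on dropping replicate 1 and 9 on dropping replicate 2, and for DISC1-N 6 and 4). The replicate block gave 55 calls, 1 with DESeq2, 43 with limma-voom, 31 with 3 or more GABA marker UMIs and 25 without members in glial-led clusters; the settings that combine the block with another choice, and all settings without glial-led members, were chosen after seeing the data. The 12 genes of highest and lowest fold change in the block fit each lost the call in at least 1 of these settings, and the other genes named from it were not run in all of them. For shares the block is the mean of the 2 within-replicate differences, 0.007 points of kept and 0.778 points of GABAergic nuclei, which equals the unpaired difference by construction. The interaction count of 1 moved to 2 with an Adarb2 minimum of 5 or of 12, 0 with an Adarb2 minimum per 1000 UMIs, with 3 or more GABA marker UMIs, without putative doublets, without glial-led members, with DESeq2 or with a mean of at least 20 CPM, 4 with other nuclei of 1 or more GABA marker UMIs, 15 with no filter and 8 to 32 without 1 library (10 and 32 for the WT replicates, 9 and 8 for DISC1-N). The causes were not tested. Precision is lowest for WT replicate 1, whose members with 2 or more Lamp5 UMIs held 17865 UMIs in all.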
